A study of Mus musculus with 4 samples.

Results

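A set of 42 genes had low RNA levels in erythroblasts with wild-type GATA-1 and in those with GATA-1 V205M, but not in those with GATA-1 2RA. The genes were selected on the deposited levels themselves, from 1124 genes that had a level in all 4 groups and a highest level of at least 50 scaled reads. A member had to be at 50% of the G1E control or less in GATA-1 WT and in GATA-1 V205M. In GATA-1 2RA it had to be above 50% of the control, at least 2 times its WT level and under 2 times its control level. Of 48 genes that met these limits, 6 were dropped by symbol (Alox5, Alox5ap, Slc23a2, Slc25a23, Vim and mt-Nd1), which left the 42. Because the levels chose the genes, the low values in WT and V205M and the high values in 2RA are a description and carry no test.

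G1E is a mouse erythroblast line derived from cells that lack GATA-1. Bulk RNA-seq compared G1E cells labelled as control with G1E cells labelled GATA-1 WT, GATA-1 2RA or GATA-1 V205M (hereafter WT, 2RA and V205M), and all 4 groups, the control included, were induced with β-estradiol. What 2RA alters in the protein is not in the labels, nor is the vector used or whether a line was 1 clone. The labels name 1 sample per group, so no difference has a replicate check, and intervals printed here are 95% intervals that cover counting error only.

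GATA-1 is a transcription factor of red cell, mast cell and platelet precursors. In maturing erythroblasts it activates globin, heme and membrane genes, and it also switches off genes of progenitors and of other blood lineages, such as Kit and Gata2. It works with its cofactor FOG-1 at many of its targets, and the V205M substitution is known to weaken that contact. Maturing red cells are also known to replace the actin-based cortex used for movement and adhesion by a spectrin skeleton.

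Promoter sequences are shown for 3 members because GATA-1 binds short GATA elements. They are the 3 members with the largest ratio of 2RA to WT among those whose window held such letters, and the choice was made after these values were seen. The windows are RefSeq promoters on GRCm38.p6, the assembly that mm10 denotes, and run 5′ to 3′ on the strand of the gene from 250 bases before to 50 bases after its start. The search covered AGATAA and its variant AGATAG, together with TGATAA and its variant TGATAG, on both strands. Matches are in capitals, and a match on the opposite strand appears as its reverse complement. Papss2 has 2 windows, the second at an internal start.
Papss2, chr19:32595465-32595764, plus strand: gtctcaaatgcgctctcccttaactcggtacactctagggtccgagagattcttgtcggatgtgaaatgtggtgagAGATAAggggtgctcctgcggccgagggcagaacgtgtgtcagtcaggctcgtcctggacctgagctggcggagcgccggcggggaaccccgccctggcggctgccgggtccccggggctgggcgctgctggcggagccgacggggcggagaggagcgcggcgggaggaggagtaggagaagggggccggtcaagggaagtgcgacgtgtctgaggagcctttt
Papss2, chr19:32619755-32620054, plus strand: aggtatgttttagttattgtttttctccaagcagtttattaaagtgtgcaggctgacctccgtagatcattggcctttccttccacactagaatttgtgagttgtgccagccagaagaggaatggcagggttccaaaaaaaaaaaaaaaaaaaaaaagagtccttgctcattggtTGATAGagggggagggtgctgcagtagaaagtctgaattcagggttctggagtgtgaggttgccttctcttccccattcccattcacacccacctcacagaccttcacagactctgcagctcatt
Cd200r3, chr16:44943428-44943727, plus strand: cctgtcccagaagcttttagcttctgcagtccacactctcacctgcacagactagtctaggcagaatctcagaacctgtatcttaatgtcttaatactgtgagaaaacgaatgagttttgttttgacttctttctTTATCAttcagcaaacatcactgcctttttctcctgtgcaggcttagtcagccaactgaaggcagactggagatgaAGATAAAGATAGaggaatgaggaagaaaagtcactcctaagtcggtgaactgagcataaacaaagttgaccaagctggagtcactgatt
Crip1, chr12:113151762-113152061, plus strand: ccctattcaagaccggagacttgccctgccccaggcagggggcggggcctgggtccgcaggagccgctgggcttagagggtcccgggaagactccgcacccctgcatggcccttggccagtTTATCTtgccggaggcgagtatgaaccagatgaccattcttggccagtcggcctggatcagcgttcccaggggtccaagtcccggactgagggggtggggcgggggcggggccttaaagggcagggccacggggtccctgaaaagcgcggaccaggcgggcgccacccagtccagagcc

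The Papss2 matches begin at -174 and -75 relative to the respective start, and the Crip1 match begins at -129. Cd200r3 held 3 matches, at -115, -39 and -33, of which the last pair lie end to end without overlap. Windows were found for 34 of the 42 members, 45 windows in all, and not for Cd97, Flot1, Gm5637, Gm9835, Klf10, Lamc1, Rcsd1 and Ywhaz. A GATA match was present in 8 of these 34 genes, or 23.5%, the other five being Fyn, Mt1, Tagln2, Tapbp and Tspan14. Among all 27025 RefSeq genes with a window the share was 33.0%, and among the genes with 4 levels it was 27.4%. The members' share lay below both, and its exact (Clopper-Pearson) 95% interval of 10.8% to 41.2% covered both. The ETS letters CGGAAG were in 29.4% of the members' genes, against 29.0% of the genes with 4 levels. The RUNX letters TGTGGT were in 20.6% against 15.9%, and the E-box letters CAGCTG or CAGATG in 26.5% against 32.4%. These are matches of letters in a short window and not measured sites.

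Levels are the authors' mean reads divided by a size factor, here called scaled reads. They are not corrected for gene length, so they are compared between groups and not between genes unless a value per kilobase is given. The level of G1E control and of V205M is the mean of 2 count columns, and that of WT and 2RA comes from 1. Listed genes held 276064 to 2178397 reads per count column, and a single read was the lowest count recovered in each, at 31 to 57 genes. The recovery took the smallest level as 1 read per column and allowed no count of 0. Whether 1 had been added to each count is therefore not known, and the smallest counts may be 1 too high. In bulk RNA, fewer cells of a kind and less RNA per cell cannot be told apart, and this holds for every level below.

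Over the 42 genes the median level was 141 scaled reads in G1E control, 37.2 in WT, 123 in 2RA and 47.2 in V205M. As a percentage of the control, WT ranged from 2.13% to 49.8% with a median of 23.8%, and V205M from 9.46% to 49.9% with a median of 28.4%. The 2RA level ranged from 52.3% to 162% of the control with a median of 98.7%. The median ratio of 2RA to WT was 3.49 (range 2.16 to 30.8) over the members and 0.905 over all 1124 genes. The ratio of 2RA to V205M had a median of 2.66 (range 1.08 to 9.86) over the members and 1.17 over all genes. In every member both V205M columns lay below both control columns, 2RA lay above both V205M columns, and WT lay below both control columns. The selection had already set these orders for the group levels, and the count was not made over all 1124 genes, so it is a description only. The standard deviation of the log2 ratio between the 2 control columns was 0.256 over the members. For the V205M columns it was 0.467 over the members and 0.284 over the 38 members with 10 or more reads in both.

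**Figure D1:**
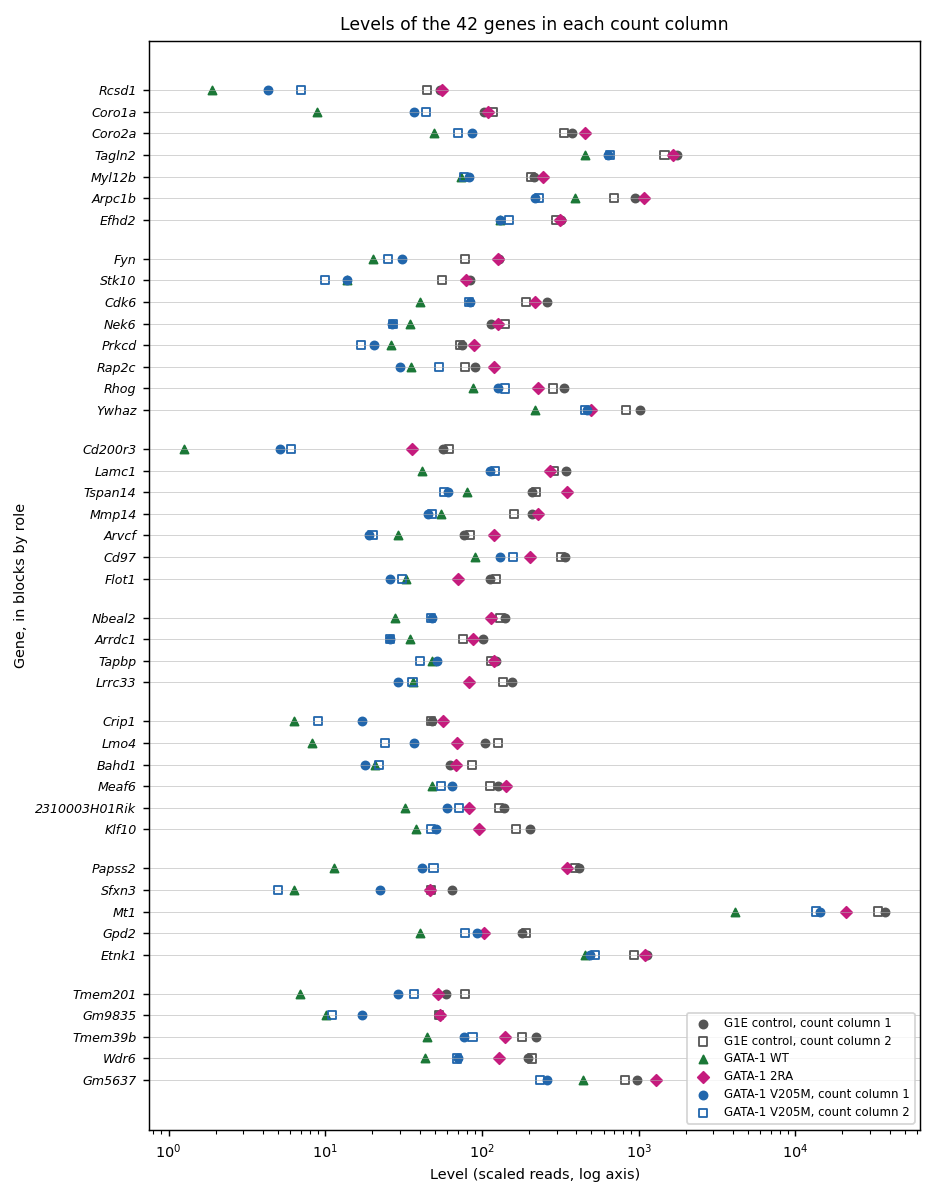
Levels of the 42 genes in scaled reads (log axis), 1 line per gene in blocks by role, with separate points for the 2 count columns of G1E control and of GATA-1 V205M. In each line the GATA-1 WT and GATA-1 V205M points lie left of both control points, and GATA-1 2RA lies right of both GATA-1 V205M points.

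The label of the set, genes released only in 2RA, held less firmly for some members than for others. The selection itself put 2RA above V205M in every member, so only the size of that gap could vary. The interval of the ratio of 2RA to V205M lay above 1 in 39 members, and in 32 the ratio was 2 or more. It contained 1 for Ywhaz, Gpd2 and 2310003H01Rik. For Ywhaz, 2RA stood at 53.6% and V205M at 49.5% of the control, on either side of the 50% limit but with a ratio of 1.08 (0.982 to 1.19). With levels rescaled by a median of ratios over the genes with 4 levels, this ratio was 0.862 for Ywhaz and 0.958 for Gpd2, so that 2RA was the lower of the pair. The other 40 members kept 2RA above V205M under that scaling, and all 42 did so with levels rescaled to equal sums. Over all 1124 genes, 2RA was above V205M in 56.1% as deposited, in 46.8% with the median of ratios and in 55.6% with equal sums. The interval counts were not made over all genes. Under both rescalings, 2310003H01Rik, Cd200r3, Cd97, Flot1, Gpd2, Klf10, Lmo4, Lrrc33, Mt1 and Ywhaz no longer met the limits of the selection. Rhog, Tmem39b and Wdr6 failed these limits under the median of ratios but met them with equal sums.

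Role groups were assigned to the members only and were not counted over all genes. Whether the set is rich in actin genes, or in those of any other role, was therefore not tested. The actin and cell cortex group had 7 members, of which only Coro1a and Tagln2 are also in the actin and adhesion list described below. All 7 stood in 2RA at 99.2% to 133% of the control, with a median of 113%. In WT they stood at 3.83% to 47.6% and in V205M at 11.4% to 45.1%. Coro1a (coronin 1A, an actin-binding protein of blood cells; gene at chr7:126699773-126707787, minus strand, in GENCODE M21 on GRCm38, as for the other gene positions) had 110.2 scaled reads in G1E control, 8.82 in WT, 109 in 2RA and 40.5 in V205M. The 2 control columns gave 103 and 117.5 and the V205M columns 36.96 and 44.1, so that 2RA lay between the control values and WT lay far under all others. The ratio of 2RA to WT was 12.4 (7.17 to 23.2), a contrast that the selection used. Coro2a, a second coronin (chr4:46536937-46602202, minus strand), had 356 scaled reads in G1E control, 49.1 in WT, 455 in 2RA and 78.03 in V205M, and 2RA exceeded both control columns (379 and 333). Its ratio of 2RA to V205M was 5.83 (4.92 to 6.95), a pair whose order the selection set.

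Rcsd1 encodes a protein that interacts with the actin capping protein CapZ, and WT held 3 reads of it. Its levels were 49.4 scaled reads in G1E control, 1.89 in WT, 55.7 in 2RA and 5.66 in V205M. The ratio of 2RA to WT was 29.5 (9.73 to 146), an interval whose width comes from those few reads. Tagln2 (transgelin 2, which binds actin filaments) had the highest level of the group per kilobase of exon, at 793 scaled reads per kilobase in 2RA. Tagln2 had 1615 scaled reads in G1E control, 458 in WT, 1651 in 2RA and 646 in V205M. Its 2RA value lay between the control columns of 1766 and 1463, and the V205M columns were close together (639 and 653). Myl12b, a regulatory light chain of non-muscle myosin, had 211 scaled reads in G1E control, 73.7 in WT, 245 in 2RA and 79.8 in V205M. Efhd2, a calcium-binding protein of the actin cortex, had 309.5 scaled reads in G1E control, 131 in WT, 313 in 2RA and 139 in V205M. For both, WT and V205M were not separated beyond counting error, and the ratio of V205M to WT was 1.08 (0.852 to 1.38) for Myl12b and 1.06 (0.889 to 1.28) for Efhd2.

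Arpc1b, a subunit of the Arp complex that branches actin filaments (chr5:145114215-145130705, plus strand), had 821 scaled reads in G1E control, 390.5 in WT, 1091 in 2RA and 224 in V205M. Here V205M was lower than WT, with a ratio of 0.575 (0.509 to 0.648). Gm5637 followed it in each group, with 894, 445, 1284 and 247 in the same order. GENCODE M21 places Gm5637 on chromosome X (chrX:60045111-60046229, minus strand, GRCm38) as a processed pseudogene, and over its whole 1119 bases it was 97.5% identical to the Arpc1b transcript, with 28 mismatches. Reads of the pair may be shared by the counting, so how the signal divides between Arpc1b and Gm5637 is uncertain, and they are not independent members.

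The signalling group had 8 members, most of them kinases and small GTPases. Fyn, a kinase of the Src family (chr10:39368855-39565381, plus strand), had 104 scaled reads in G1E control, 20.1 in WT, 126.5 in 2RA and 27.99 in V205M. Its control columns differed, at 129 and 78.3, and 2RA lay between them. Stk10, a kinase known to phosphorylate proteins that tie membrane to actin, had 69.96, 13.9, 79.3 and 11.9 scaled reads in G1E control, WT, 2RA and V205M. Cdk6, the D-type cyclin partner that drives entry into the cell cycle, had 224.5, 40.3, 218 and 83.2 in that order, and 2RA again lay between the control columns of 259 and 190.3. Its ratio of 2RA to WT was 5.41 (4.12 to 7.19) and to V205M 2.62 (2.17 to 3.17).

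Nek6, a mitotic kinase, had 127, 34.6, 127 and 26.8 scaled reads in the same order, with a ratio of 2RA to control of 0.999 (0.793 to 1.26). Prkcd, the delta isoform of protein kinase C, had 73.6, 26.4, 89.3 and 18.8. In both, V205M was the lowest of the 4, but the V205M to WT interval contained 1, with ratios of 0.775 (0.526 to 1.14) and 0.712 (0.451 to 1.12), and rescaling put V205M above WT, in Nek6 under both rescalings and in Prkcd under the median of ratios. Rap2c, a Ras-like GTPase, had 84.6, 35.3, 119 and 41.6, and its V205M columns were apart, at 30.1 and 53.1. Rhog, a small GTPase that acts on the cortex, had 309, 87.5, 226.5 and 133. In Rhog, 2RA lay below both control columns, at 73.2% of the control level. Ywhaz, an adaptor that binds phosphorylated proteins, had 931, 219, 499 and 461, so that 2RA and V205M were close together, and its ratio of 2RA to WT was 2.28 (2.001 to 2.599).

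The cell surface and matrix group had 7 members and the widest range of 2RA values, 60.1% to 162% of the control. Cd200r3, a receptor of the CD200R family known from mast cells and basophils (chr16:44943678-44981380, plus strand), was at 59.05 scaled reads in G1E control, 1.26 in WT, 35.7 in 2RA and 5.58 in V205M. WT rested on 2 reads, and the ratio of 2RA to WT was 28.4 (7.45 to 241). The 2RA level was well above both V205M columns (5.16 and 6.01) and below both control columns (56.5 and 61.6). Lamc1, the laminin gamma 1 chain of basement membranes, had 317 scaled reads in G1E control, 41.6 in WT, 270.1 in 2RA and 117 in V205M. The order in Lamc1 was control, 2RA, V205M and WT, and each neighbouring pair was apart by more than counting error, with a ratio of 0.853 (0.736 to 0.987) for 2RA to control, 2.31 (1.96 to 2.72) for 2RA to V205M and 2.81 (2.14 to 3.75) for V205M to WT.

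Tspan14, a tetraspanin that partners the protease ADAM10, was the member highest in 2RA relative to control. It had 215 scaled reads in G1E control, 79.99 in WT, 348 in 2RA and 59.1 in V205M, and the ratio of 2RA to control was 1.62 (1.38 to 1.904). Mmp14, a membrane-anchored matrix metalloproteinase, had 183, 54.8, 229 and 46.8 in G1E control, WT, 2RA and V205M. Arvcf, a catenin that binds cadherins, had 80.5, 28.97, 119 and 19.5. In Tspan14, Mmp14 and Arvcf the order was 2RA, control, WT and V205M, and only in Tspan14 of the 3 did the V205M to WT interval exclude 1, at 0.738 (0.573 to 0.952). V205M came above WT in Mmp14 under both rescalings and in Tspan14 under the median of ratios. Cd97, an adhesion receptor of leukocytes, had 329.5, 90.7, 201.5 and 144, and Flot1, a scaffold protein of membrane microdomains, had 118, 32.8, 70.7 and 28.4. Cd97 and Flot1 were only partly kept in 2RA, at 61.1% and 60.1% of the control.

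The membrane traffic and immune group had 4 members. Nbeal2, a protein needed for platelet alpha granules, had 136, 27.7, 114 and 47.6 in the same order, and its V205M to WT ratio was 1.72 (1.195 to 2.505). Tapbp (tapasin, which loads peptide on class I MHC) had 119, 47.9, 120.0 and 45.8, and Arrdc1, an arrestin-domain adaptor of vesicle budding, had 88.7, 34.6, 87.2 and 25.9. In Tapbp and Arrdc1 the intervals of 2RA to control contained 1, at 1.01 (0.801 to 1.28) and 0.982 (0.751 to 1.29). Lrrc33, also named Nrros, which holds latent TGF-beta on the cell surface, had 146.5, 36.5, 82.9 and 32.6, and its 2RA level lay below both control columns of 156 and 137.

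The transcription and nucleus group had 6 members and the second lowest median 2RA level relative to control, 76.6%. Lmo4, a LIM-only adaptor of transcription complexes (chr3:144188530-144205220, minus strand), had 115 scaled reads in G1E control, 8.19 in WT, 69.3 in 2RA and 30.5 in V205M. WT held 13 reads, and V205M lay between WT and 2RA, with a V205M to WT ratio of 3.73 (2.04 to 7.36). Crip1, a small LIM protein, had 47.8, 6.298, 56.4 and 13.1 in the order G1E control, WT, 2RA and V205M, and its V205M columns were 17.2 and 9.02. Klf10, a zinc finger factor induced by TGF-beta, had 184.5, 37.8, 96.5 and 48.9 and was the member nearest to the 50% limit in 2RA, at 52.3% of the control. The chromatin protein Bahd1 had 74.6, 20.8, 67.9 and 20.04. Meaf6, a subunit of histone acetyltransferase complexes, had 119.8, 47.9, 142 and 59.8, and with 49.9% of the control was the member nearest to the limit in V205M. 2310003H01Rik, now named Faap100 and part of the Fanconi anemia core complex, had 133, 32.1, 82.9 and 65.6, and its ratio of 2RA to V205M was 1.26 (0.979 to 1.63).

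The metabolism and mitochondria group had 5 members, among them the largest gap between 2RA and WT. Papss2, which makes the universal sulfate donor for sulfation reactions (chr19:32595790-32667187, plus strand), had 405 scaled reads in G1E control, 11.3 in WT, 349 in 2RA and 45.2 in V205M. The control columns were 415 and 394.5 and the V205M columns 41.3 and 49.1, so that 2RA lay just under the control and V205M lay nearer to WT than to 2RA. The ratio of 2RA to WT was 30.8 (19.3 to 52.4) and that of 2RA to V205M 7.73 (6.21 to 9.72). The selection had set the order of both pairs.

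Mt1 (metallothionein 1, which binds zinc and copper) was by far the most abundant member, at 16990 scaled reads per kilobase in 2RA. Its levels were 35606 scaled reads in G1E control, 4099.5 in WT, 21169 in 2RA and 13958 in V205M. The 4 groups were in the order control, 2RA, V205M and WT, and the ratios between neighbours were 1.52 (1.49 to 1.54) for 2RA to V205M and 3.405 (3.31 to 3.498) for V205M to WT. V205M thus lay closer to 2RA than to WT in this gene. Sfxn3, a mitochondrial carrier, had 55.9, 6.298, 46.4 and 13.7 in G1E control, WT, 2RA and V205M. Its V205M columns held 26 and 5 reads, the widest gap between columns among the members, at 2.16 on the log2 scale. Its ratio of 2RA to V205M was 2.08 with the first of these columns alone and 9.27 with the second. Gpd2, the mitochondrial glycerol phosphate dehydrogenase, had 185, 40.3, 103 and 85.5, and Etnk1, the ethanolamine kinase of phospholipid synthesis, had 1028, 455, 1100.2 and 507. Gpd2 in 2RA lay nearer to V205M than to control, while Etnk1 in 2RA lay between the control columns of 1124 and 932.

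Another 5 members fell outside these groups. Tmem201, a protein of the inner nuclear membrane, had 68.7, 6.93, 52.1 and 33.1 in the same order and the largest V205M to WT ratio of the set, 4.78 (2.52 to 10.02). Tmem39b had 199.6, 44.7, 140.0 and 82.2, the WD repeat protein Wdr6 had 203, 43.5, 128 and 69.8 and Gm9835, which had no GENCODE match, had 53.1, 10.1, 54.3 and 14.1. Gm5637, described with Arpc1b, was the fifth. In Tmem39b and Wdr6 the 2RA level was below both control columns, and in Gm9835 it was level with them, the columns being 53.1 and 53.2.

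Whether 2RA reached the control level or passed it varied within the set. The interval of 2RA to control contained 1 in 20 members. It lay above 1 in 7, namely Arpc1b, Arvcf, Coro2a, Gm5637, Mmp14, Rap2c and Tspan14, and below 1 in 15, among them Mt1, Klf10, Ywhaz, Gpd2, Lmo4 and Papss2. These interval counts were not made over all 1124 genes. 2RA was above control in 19 of 42 members with the deposited size factors, in 7 with levels rescaled to equal sums and in 1, Tspan14, with the median of ratios. Over all 1124 genes, 2RA was above control in 62.4%, 52.1% and 47.5% under the same settings. On the log2 scale, the equal sums shifted control by 0.36 and 2RA by 0.05, and the median of ratios shifted them by 0.39 and -0.19, so the standing of 2RA against control depended on the size factors. In the actin group, Rcsd1, Tagln2, Myl12b and Efhd2 turned from above to below control under both rescalings, and Coro2a and Arpc1b under the median of ratios.

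**Figure D2:**
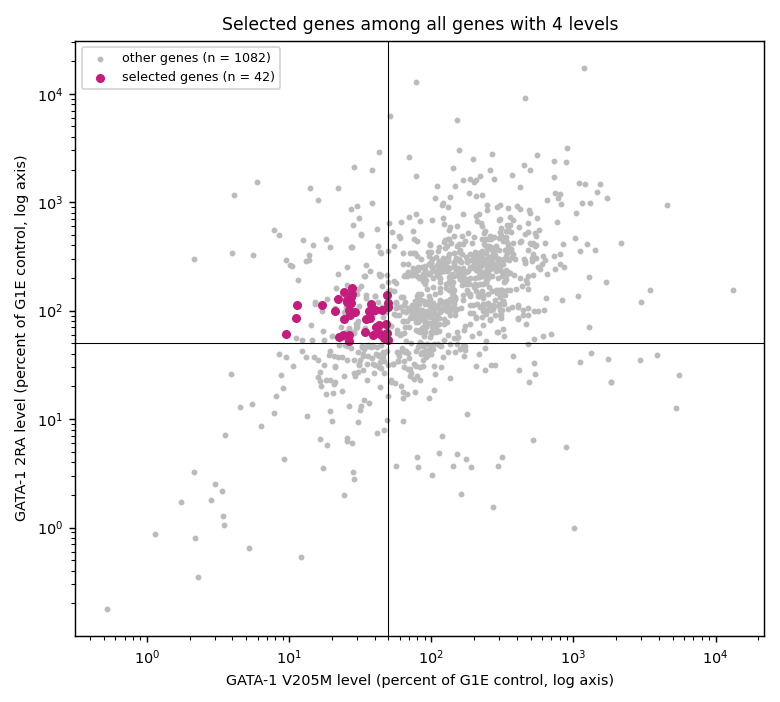
2RA level against V205M level of each gene with 4 levels, both as a percentage of G1E control on log axes, with lines at 50%. The 42 selected genes (n = 42) occupy the area left of the V205M line and above the 2RA line, which also holds genes that failed the WT or upper 2RA limits, and several lie close to the lines.

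The selection limited WT to at most 50% of the 2RA level but did not limit V205M in that way, which by itself favours V205M over WT. V205M was above WT in 29 of the 42 members and in 455 of all 1124 genes, 69.0% and 40.5%. The median ratio of V205M to WT was 1.41 (range 0.555 to 4.78) over the members and 0.738 over all genes. The interval lay above 1 in 19 members and below 1 in 3, Arpc1b, Gm5637 and Tspan14, and these counts were not made over all genes. V205M was at least 2 times WT in 14 members, or 33.3%, against 26.2% of all genes. WT was at least 2 times V205M in none of the 42, and in 452 of the 1124. WT was the lowest of the 4 groups in 29 members and V205M in 13, since the selection put both below control and 2RA. With both rescalings the number of members with V205M above WT was larger, 37 and 39, and so was the share of all 1124 genes, 49.6% and 51.3%. Under both, Arrdc1, Bahd1, Flot1, Lrrc33, Mmp14, Nek6, Stk10 and Tapbp turned from below to above WT, and under the median of ratios Prkcd and Tspan14 did too. Arpc1b, Arvcf and Gm5637 stayed below WT under both.

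**Figure D3:**
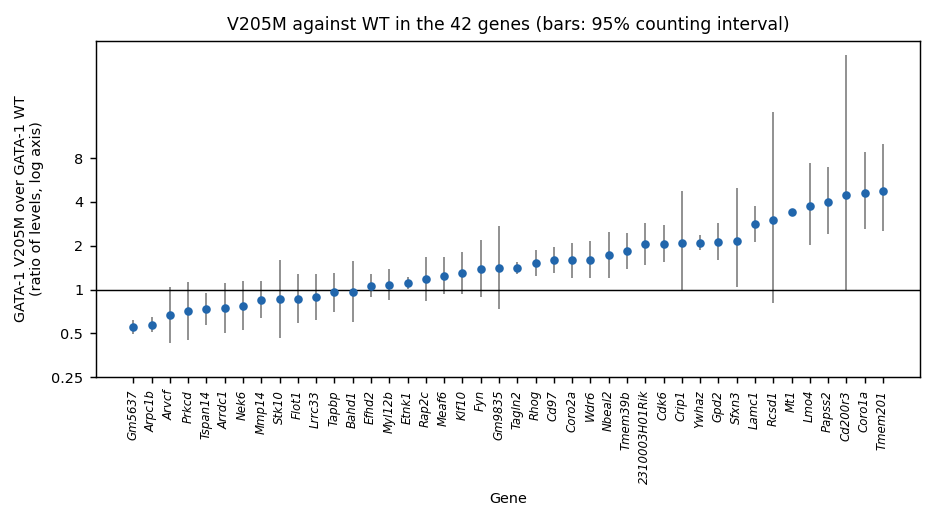
Ratio of the GATA-1 V205M level to the GATA-1 WT level for each of the 42 genes (log axis), ordered by the ratio, with bars for the 95% counting interval. Of the points, 29 lie above the line at 1, and the bars are longest for Cd200r3 and Rcsd1, which rest on 2 and 3 WT reads.

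Coro1a, Lmo4, Papss2, Mt1, Lamc1, Tmem201, Gpd2 and Ywhaz were the 8 members that the authors listed as higher in V205M than in WT, against 3.70% of all 12931 genes tested. Among the 1124 genes with 4 levels the share listed in that direction was 23.2%, above the 19.0% of the members. In these 8 genes the V205M level stood between WT and control. The ratio of V205M to WT was 3.98 (2.39 to 7.005) for Papss2 and 4.595 (2.596 to 8.754) for Coro1a. In the actin group, Coro1a stood at 8.004% of control in WT and 36.8% in V205M, while Arpc1b stood at 47.6% and 27.3%.

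The authors listed a gene in a pair where its adjusted p-value was below 0.01 and its change above 2-fold. Of the 42 members, 37 were listed as higher in 2RA than in WT, against 3.33% of all genes tested, and the other five were Arrdc1, Bahd1, Flot1, Fyn and Lrrc33. Fyn was not among the listed genes of this pair although its ratio of 2RA to WT was 6.27 (4.29 to 9.45) by counting error alone. As higher in 2RA than in V205M, 30 were listed, against 3.60% of all genes. As lower than control, 40 were listed in WT, against 4.86%, without Arpc1b and Prkcd, and 41 in V205M, against 3.32%, without Tmem201. Among the 1124 genes from which the members were drawn, the shares listed in these 4 directions were 26.4%, 27.5%, 26.5% and 22.5%. These contrasts were used in the selection, and the counts are given as a description only. The 12 not listed against V205M were 2310003H01Rik, Cd97, Gpd2, Klf10, Lmo4, Mt1, Rhog, Sfxn3, Tmem201, Tmem39b, Wdr6 and Ywhaz. For Mt1 the ratio of 2RA to V205M was 1.52 (1.49 to 1.54), under the 2-fold limit, and for Sfxn3 it was 3.395 (2.18 to 5.39), with few reads.

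The limits of the selection left other genes close by. Among the 159 genes at 50% of control or less in WT and V205M, 87 were also at 50% or less in 2RA and 72 were above it. Of these 72, 5 had 2RA under 2 times WT and 19 had 2RA at 2 times control or more. Counted without the minimum level that the 159 had to reach, 42 genes low in WT and V205M had no 2RA level in any deposited table. The authors had listed these 42 in no pair with 2RA, and they could not be placed. Just below the 2RA limit lay Ptprs (47.7% of control), Lasp1 (47.4%), Zc3hav1l (46.1%), Flna (42.5%) and Tmem109 (42.3%), and just above it Klf10, Ywhaz, Gpd2, Lrrc33 (56.6%) and Mt1 (59.5%). Just above the V205M limit lay H6pd (54.7%), 1110002B05Rik (54.9%), Cpt1a (56.2%), Ergic1 (56.4%) and Sh3bgrl3 (56.9%), and just inside it Meaf6, Ywhaz, Etnk1, 2310003H01Rik and Rap2c, at 49.2% to 49.9%.

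Just above the WT limit lay Lama5 (56.8%), Abcc4 (58.8%) and Pcdh7 (72.6%), and just inside it Gm5637 (49.8%), Arpc1b (47.6%), Etnk1, Efhd2 and Rap2c. In the ratio of 2RA to WT, Flot1 (2.16), Cd97 (2.22), Lrrc33, Ywhaz and Efhd2 were just inside, and Fzd5 (1.88), Arhgap6 (1.71), Podxl (1.69), Gpc4 (1.30) and Isyna1 (1.19) just outside. At the upper 2RA limit, Tspan14 (162%), Arvcf (147%), Gm5637, Rap2c and Arpc1b were inside, and 6430527G18Rik (233%), Dok2 (287%), Lat (293%), Cited1 (299%) and Tiam1 (324%) outside.

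Gene lists put the members in context. Of 44 actin and adhesion genes, 13 had 4 levels and the minimum, and 2 of these, Coro1a and Tagln2, were members. These 2 are included in the counts and medians that follow, although their part in them was set by the selection. From the whole list, 11 genes were listed by the authors as higher in 2RA than in WT and 1 as lower, and 12 as higher in 2RA than in V205M and 2 as lower. Of the 13, 9 were listed as higher and 1 as lower against WT, and the same numbers against V205M. Among the 1124 genes with 4 levels, 26.4% were listed as higher and 31.7% as lower in 2RA than in WT, and 27.5% and 18.1% than in V205M. Over the 13, 2RA was above WT in 12, the exception being Actn4, and above V205M in 12, the exception being Cd44. The median log2 ratio of 2RA to WT over the 13 was 1.71, against -0.14 over all 1124 genes. Against control, 8 of the 13 were listed as higher in 2RA and 2, Flna and Myo1g, as lower. The shares of the 1124 genes in these directions were 38.2% and 18.5%. The median log2 ratio of 2RA to control was 1.17 over the 13 and 0.44 over all 1124 genes. WT was below control in 9 of the 13 and V205M in 8. Zyx (zyxin of focal adhesions) had 43.3, 13.9, 222 and 13.9 scaled reads in G1E control, WT, 2RA and V205M, low in the same groups as the members but far above control in 2RA. Flna (filamin A, which cross-links actin) had 568, 64.9, 242 and 110.2 and stood just short of the 2RA limit. Tln1 (talin, which couples integrins to actin) had 665, 608, 1576 and 602, and stood at 91.5% and 90.6% of control in WT and V205M.

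**Figure D4:**
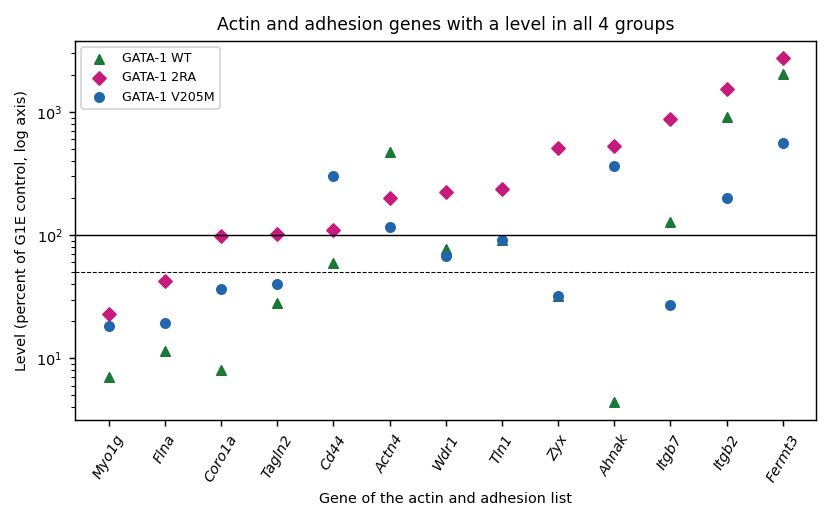
Levels of 13 actin and adhesion genes with a level in all 4 groups, as a percentage of G1E control on a log axis, with a solid line at 100% and a broken line at 50%. Coro1a and Tagln2, the 2 members, lie near the solid line in GATA-1 2RA, while Zyx, Itgb7 and Tln1 lie above it.

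Other lists held 1 member each. They were Cdk6 of 32 cell cycle genes, Lmo4 of 31 stem and progenitor genes, Klf10 of 59 transcription factors and cofactors, Rhog of 33 small GTPase genes, Nbeal2 of 29 megakaryocyte genes and Cd200r3 of 9 eosinophil and basophil genes. Of the stem and progenitor list, 10 genes were listed as higher in 2RA than in WT and 0 as lower, while 5 were higher and 2 lower than in V205M. Of its 12 genes with 4 levels, 9 were higher than in WT and 0 lower, and 4 higher and 2 lower than in V205M, to be read against the shares of all genes given for the actin list. Of the cell cycle list, 3 were higher than in WT and 9 lower, so Cdk6 stood with Ccnd1 and Ccnd2 against the larger number. Of its 12 genes with 4 levels, these were 3 and 7. Against V205M, 4 genes of the cell cycle list were higher in 2RA (Ccnd1, Ccnd3, Cdc25b and Cdk6) and 1 lower (Ccne1), all with 4 levels. Lmo4 and Cdk6 are in these counts because they were selected for them. Lists with no member were those of 24 erythroid, 21 mast cell, 27 lysosome, 22 glycolysis and hypoxia, 45 cytokine and MAPK signalling, 30 cholesterol and fatty acid, 33 nucleotide, amino acid and ribosome biogenesis, 24 neutrophil and macrophage, 15 lymphocyte and 10 endothelial and stromal genes. Of these, in the same order, 21, 11, 7, 13, 9, 11, 5, 1, 0 and 2 had the 4 levels and the minimum that a member needed, so the last lists could hardly hold one.

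The check of the labels used Gata1 and its textbook targets. Gata1 had 153 scaled reads in G1E control, 2652 in WT, 1421 in 2RA and 614 in V205M, and Esr1, the estrogen receptor gene, had 1.83, 58.6, 43.6 and 13.3 in the same order. The members were therefore low in V205M, the group with the least Gata1 RNA of the 3, and high in 2RA, which had more, and the part of Gata1 RNA in their levels was not tested. Gata2 had 773, 54.8, 514 and 1316, and Kit 2429, 179, 2218 and 1440. Both were under 50% of control in WT but not in V205M, unlike the 42 genes.

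Markers of cell types moved with the groups as well, and their part in the members' levels was not tested. The 6 erythroid markers with 4 levels summed to 2301 in G1E control, 60915 in WT, 4241 in 2RA and 1359 in V205M. The 3 progenitor markers (Kit, Gata2 and Meis1) summed to 3217, 251, 3008 and 2814, and the 5 mast cell markers to 5448, 183, 2398 and 2433. Kit is in both sums. Without it, the progenitor markers summed to 788, 72.4, 791 and 1374 and the mast cell markers to 3020, 3.78, 180.0 and 993, so that V205M was above 2RA in each. Meis1, a progenitor homeobox factor, went the other way, at 15.4, 17.6, 276.5 and 57.2. Of the lymphocyte markers, Ptprc alone was listed, at 3.23, 0.630, 68.6 and 0.931. Its WT and V205M values equalled the lowest of those groups over the 1124 genes, and Ptprc is also in the stem and progenitor list. Of the 4 eosinophil and basophil markers, Il4 alone was listed, at 29.9, 103, 124 and 47.2. Il4 was listed by the authors as higher in 2RA than in V205M. So was Cd200r3 of the longer list for these cells, a member whose order the selection set. In WT, Il4 was above control, while Cd200r3 was below it, at 1.26 against 59.05. Of the 11 mast cell list genes with 4 levels, 2 were listed as higher in 2RA than in V205M and 4 as lower. The shares among all 1124 genes with 4 levels were 27.5% and 18.1%.

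Of the 7 megakaryocyte markers, Gp1ba and Itgb3 were listed but had no level in all 4 groups. Of the longer megakaryocyte list of 29 genes, 10 had a level. Fli1, Gp5, Itgb3, Nbeal2, Nfe2 and Plek, 6 genes, were listed as higher in 2RA than in V205M and 0 as lower, and against WT 3 were higher (Fli1, Nbeal2 and Plek) and 1 lower (Nfe2). Only 4 genes of the list had 4 levels and the minimum. Of these, 4 were listed as higher and 0 as lower than in V205M, and 3 as higher and 1 as lower than in WT. The member Nbeal2 is among the higher genes in each of these counts because it was selected for being high in 2RA and low in WT and V205M. Among the 1124 genes with 4 levels, 27.5% were listed as higher and 18.1% as lower in 2RA than in V205M, and 26.4% and 31.7% than in WT. Plek (pleckstrin, a protein of platelets) had 237, 368, 1319 and 18.7 scaled reads in G1E control, WT, 2RA and V205M, and Fli1, an ETS factor of megakaryocytes, had 36.4, 89.4, 331 and 47.6. The part of such genes' cells in the members' levels was not tested. None of the 6 neutrophil and macrophage, 3 endothelial and 3 stromal markers was listed in any table, which says nothing of their level. From the longer lists for these cells, Itgb2, an integrin of leukocytes, had 47.3, 428, 729 and 95.3, Egfl7, known from endothelium, had 8.79, 183, 36.4 and 109, and the collagen gene Col5a1 had 6.45, 104, 0.714 and 11.6.

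The members lay on 18 chromosomes, with 5 on chromosome 4 and 4 on chromosome 2, and no pair lay within 1 Mb of each other. Of the 41 members matched to GENCODE M21, 40 were protein-coding and 1 was the pseudogene Gm5637.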

How the data were processed

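RNA-seq of 4 groups, 1 sample each, was taken from 6 tables, 1 for each pair of groups. The deposited signal is a group's mean read count divided by size factors. The deposited ratio (fold) is the quotient of these means and the deposited log2 value its logarithm. The deposited p-value has an adjusted value over 12931 genes, and only genes under 0.01 with over 2-fold change are listed, as the values show. TopHat, Cufflinks, Cuffdiff, deepTools and mm10 are named per the submitters' processing notes; which of them made the tables is not stated there.

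Whole reads were recovered for 100% of levels (relative tolerance 1e-09). G1E control and GATA-1 V205M each hold 2 count columns; no label says if these are cultures or runs. Reads in listed genes per column ranged from 276064 to 2178397. Ratios are of the deposited levels; their 95% intervals are Clopper-Pearson intervals of recovered reads, weighted as in the authors' means (SciPy 1.17.1). No test was computed between groups, apart from an edgeR 4.0.16 quasi-likelihood fit (R 4.3.3) with Benjamini-Hochberg adjustment as an alternative. Positions come from GENCODE M21, where 41 of 42 members matched, 3 by an older symbol, and promoters from RefSeq. Sequence identity was computed with BLAST 2.17.0.

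Every member is named; the naming rule asked for the 4 levels of the 12 members with the largest ratio of 2RA to WT, of the 12 with the highest 2RA level and of those in a gene list, and they are given for the rest too, with the 5 genes nearest to each limit on either side, or fewer where fewer exist, and Gata1, Gata2, Kit and Esr1. Zyx, Flna, Tln1, Meis1, Plek, Fli1 and the 3 promoters were named after their values were seen. The members, the gene lists and the role groups were chosen with earlier results of these data known. Other limits, scalings, single count columns, pseudocount, stricter adjusted p-value, edgeR and motif letters were tried as alternatives. Of the actin and adhesion list, 1 gene is not reported here, and the list's counts leave it out.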

Additional observations from a re-analysis of the deposited data

How the results depend on the processing

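The number of members stayed within 1.5 times of 42 under 11 alternatives (32 to 51) and was 13 with a fold of 3 for the decreases and the gap to WT. The genes changed more than the number: 30 of the 42 were shared at a fold of 1.5, 32 with levels rescaled to equal sums and 29 with the median of ratios, and 22 stayed members under every scaling and single-column setting. Under all 12 alternatives, Coro2a, Fyn, Mmp14, Nek6 and Papss2 stayed. The median ratio of 2RA to control was 0.663 with the median of ratios, that of WT to control 0.143 with equal sums and 0.140 with the median of ratios, and that of V205M to control 0.230 and 0.240. With the median of ratios, the median ratio of 2RA to V205M was 2.12 and that of V205M to WT 2.02. Both rescalings rest on the listed, changed genes, and no median turned in direction. The counts of members listed as higher in 2RA stayed within 1.5 times at an adjusted p-value below 0.001 and with edgeR, whose spread comes from columns that may be runs of 1 sample, but the members were selected on these reads, so this supports nothing. The share of members with a GATA match was 17.6% with GATAA alone. No paired analysis was possible because each group has 1 sample. The ratios to WT of Cd200r3 and Rcsd1 rest on 2 and 3 WT reads, although the WT column held the most reads.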
